A study of Rattus norvegicus with 6 samples.

Results

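Cdk16, Cdk17 and Cdk18, the PCTAIRE kinases, were described together with Cdk5, its activator Cdk5r1 and cyclin Y (Ccny) in purified rat beta cells. The transcripts were those whose gene name in the deposited assembly is one of these 6 symbols, which gave 6 of 24579 gene models and 20 of 60887 transcripts. The family was taken up with results of the knockdown comparison known, and the Cdk18 forms were singled out because of them, so the values of the members in that comparison are a description without a test.

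Rat pancreatic beta cells were sorted by flow cytometry, and the titles of the libraries number 3 batches. In each batch one culture received siRNA directed at Nova1, which encodes an RNA-binding regulator of splicing in neurons, and another a negative control siRNA. In both groups the siRNA was delivered at 30 nM with a lipid reagent for 16 h, and cells recovered for 48 h before RNA was taken. The design therefore compares 3 Nova1 knockdown libraries with 3 control libraries, batch by batch. The labels name neither animals, strain nor age, and untransfected cells were not analysed here. Batch was fitted as a block, so p-values here reflect the spread, over 3 batches, of the difference between knockdown and control. With no animals named, these batches may be technical.

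PCTAIRE kinases are cyclin-dependent kinases named after an amino acid motif in a helix that contacts the cyclin, and they are known mainly from neurons, testis and membrane traffic. Cyclin Y binds Cdk16 at membranes and activates it, and protein kinase A phosphorylates Cdk16 and Cdk18. Cdk5 is a close relative that needs no classical cyclin: it is switched on by the proteins of Cdk5r1 and Cdk5r2, and in neurons and beta cells it acts on proteins of exocytosis and on calcium channels.

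Promoter sequences are shown first for Cdk18 and Cdk16, because the forms of these genes that differed between the groups start at different sites. The windows come from RefSeq on GRCr8 (250 bases before to 50 after an annotated start, 5′ to 3′ on the gene's strand). Cdk18 has 1 window, on the minus strand at chr13:46117227-46117526, and Cdk16 has 2, on the minus strand at chrX:4057331-4057630 and chrX:4057776-4058075. The windows do not cover every start of these forms. Of the Cdk18 forms, only that which begins farthest downstream was matched to the window, by spacing. The other Cdk18 forms, and the Cdk16 form that starts within the gene, were matched to no window. Capitals mark 4-letter words that Nova proteins bind in RNA (with T written for U), where they read in the gene's direction: TCAT or TCAC, and the same words with C for the first letter (CCAT or CCAC).
Cdk18: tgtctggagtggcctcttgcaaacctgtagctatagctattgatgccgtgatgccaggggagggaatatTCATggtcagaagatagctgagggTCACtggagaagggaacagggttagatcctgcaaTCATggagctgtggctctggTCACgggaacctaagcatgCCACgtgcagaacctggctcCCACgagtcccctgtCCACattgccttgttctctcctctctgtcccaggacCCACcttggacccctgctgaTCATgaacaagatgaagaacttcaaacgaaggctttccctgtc
Cdk16 first window: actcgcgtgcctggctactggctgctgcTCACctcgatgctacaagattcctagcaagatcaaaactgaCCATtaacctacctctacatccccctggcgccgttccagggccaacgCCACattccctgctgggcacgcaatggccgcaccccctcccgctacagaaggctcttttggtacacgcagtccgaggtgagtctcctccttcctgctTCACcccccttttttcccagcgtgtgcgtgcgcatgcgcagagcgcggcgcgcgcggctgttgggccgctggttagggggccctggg
Cdk16 second window: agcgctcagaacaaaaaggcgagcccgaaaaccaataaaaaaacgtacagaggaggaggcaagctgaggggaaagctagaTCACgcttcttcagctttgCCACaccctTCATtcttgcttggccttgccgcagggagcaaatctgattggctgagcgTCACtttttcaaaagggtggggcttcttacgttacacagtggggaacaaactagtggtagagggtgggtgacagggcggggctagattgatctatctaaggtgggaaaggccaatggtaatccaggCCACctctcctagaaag

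The Cdk18 window holds 9 tetramers in the gene's direction, with overlapping matches counted singly, and 7.77% of 33469 windows of the same length hold at least as many. On the other strand it holds 7, against a median of 5 over all windows. The Cdk16 windows hold 4 and 5 in the gene's direction, against a median of 4. Nova proteins bind RNA, and 250 bases of each window lie before the annotated start. Much of what was counted may therefore be in no RNA, and nothing about Nova binding is read from these ranks. In the Cdk18 window, a CAG lies 16 bases before the annotated start, after a stretch in which 18 of 20 bases are C or T. In the deposited assembly, on Rnor_5.0, the exon shared by the Cdk18 forms begins 16 bases upstream of the start of the form that begins inside it, the same spacing. A CAG at this place is held by 2.44% of all windows, and a CAG with as many C or T before it by 0.0269%. The pattern was read from the Cdk18 window itself, so these percentages are no test of the match. Of the 9 tetramers, 7 lie in the 231 bases upstream of that CAG. If the match holds, these bases are intron in the 5 forms that join a first exon of their own to the shared exon. They would then be no promoter of those forms. Coordinates were not converted between the builds, so the match rests on spacing alone, and a match of letters is not a binding site. From the annotated start to the 3′ end of the gene the distance is 9513 nt on GRCr8. From the start of the form that begins inside the shared exon it is 9594 nt on Rnor_5.0, so these distances are not equal.

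Motifs known from promoters were also searched in the windows on both strands. CACGTG is present in the Cdk18 window, where it overlaps a CCAC tetramer, and in 6.42% of all windows. CCAAT and GGGCGG are present in the second Cdk16 window and in 37.5% and 33.1% of all windows. TATAAA was found in no member's window, and it is held by 14.2% of all windows. The windows of Cdk5, Cdk5r1 and Ccny hold GGGCGG and are rich in G and C, at 65.3%, 78.0% and 75.3%, against 53.3% for Cdk18 and a median of 51.7%.

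In the deposited assembly Cdk16 lies on chromosome X (2500720 to 2512211, minus strand of Rnor_5.0), with 5 forms. Cdk17 lies on chromosome 7 (34066484 to 34146881, plus strand), with 4 forms. Cdk18 lies on chromosome 13 (53963404 to 53990173, minus strand), with 6 forms. Cdk5 lies on chromosome 4 (7294309 to 7299734, plus strand), with 2 forms, and Cdk5r1 on chromosome 10 (67515764 to 67516965, plus strand) as a single exon of 1202 nt. Ccny lies on chromosome 17 (64101137 to 64238225, minus strand), with 2 forms. Of the 20 transcripts, 9 match an annotated transcript and 11 are new splice combinations of the authors' assembly. No exon of another gene in the assembly overlaps an exon of these genes on either strand.

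The PCTAIRE genes share a long run of exon lengths, and Cdk5 does not share it. Cdk16, Cdk17 and Cdk18 have 12 consecutive exons of equal length, together 1117 nt, which open with an exon of 126 nt and close with an exon of 78 nt. Cdk16 and Cdk17 share a further exon of 134 nt before these, which gives 13 exons and 1251 nt. With Cdk5, no more than 1 exon in a row, of 57 nt, had the same length.

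**Figure D1:**
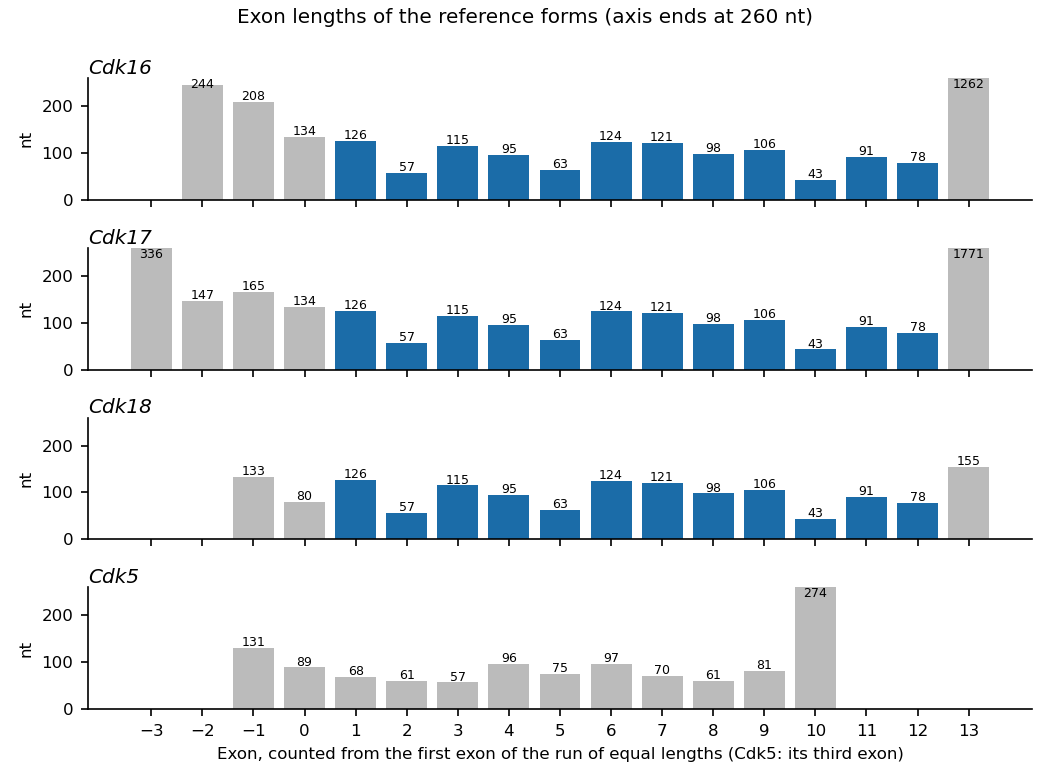
Length in nucleotides (nt, vertical axis, ending at 260 nt) of each exon of an annotated form of Cdk16, Cdk17, Cdk18 and Cdk5, in the order of transcription. Blue bars are the 12 consecutive exons of equal length in the 3 PCTAIRE genes, grey bars are other exons, and the length is printed on each bar.

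As a check of the labels, Nova1 RNA stood lower in all 3 knockdown libraries, at 9.13 ± 1.25 CPM (reads relative to library size) in Nova1 knockdown cells and 19.8 ± 2.14 CPM in control cells (SD, n = 3 each). Nova1 was also lower in each batch in RPKM (reads relative to the length of a transcript and the size of a library). Its summed RPKM was 1.38, 2.38 and 1.81 in knockdown libraries of batches 1, 2 and 3, against 5.06, 2.83 and 2.03 in control libraries. In RPKM the ranges of the groups overlapped. Knockdown libraries held between 95394043 and 146453308 assigned reads and control libraries between 122637234 and 292432076, and in each batch more reads were assigned in the control. Summed RPKM of 9 beta cell markers ranged from 220000 to 485000 in knockdown libraries and from 295400 to 480600 in control libraries, with Ins1 the highest. Of the other cell types, 8 acinar markers summed to between 130.7 and 369 RPKM in knockdown libraries, against 179.9 to 491.3 RPKM in control libraries, and 6 stellate cell and fibroblast markers to between 16.6 and 22.2 RPKM, against 6.65 to 14.9 RPKM. Of the 8 acinar markers, 6 were lower in the knockdown of all 3 batches, as were 24.3% of all genes tested. Of the 9 beta cell markers, 2 were lower and 1 was higher in all 3 batches. The stellate sums of the groups did not overlap, and of all genes tested 7.8% had RPKM without overlap. The 7 markers of other islet endocrine cells, with Gcg the highest, summed to between 7388 and 15780 RPKM in knockdown libraries. In control libraries they summed to between 5531 and 14480 RPKM. Of these 7 markers, 5 were higher in the knockdown of all 3 batches, as were 25.8% of all genes tested. The 6 immune cell markers summed to between 12.8 and 23.7 RPKM in knockdown libraries and between 13.8 and 16.3 RPKM in control libraries. At an adjusted p below 0.05 in limma, 1 acinar marker was lower in the knockdown and 1 stellate marker higher. Among immune markers 1 was higher and 1 lower, and no marker of beta cells or other islet endocrine cells passed. Over all genes, 1.71% of 15983 passed. The part of other cell types in the results below was not tested, and in these bulk samples fewer cells of a type and less RNA per cell cannot be told apart.

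Cdk16 was the most abundant of the 6 genes and Cdk5r1 the least. As a mean over the 6 libraries, Cdk16 was at 36.1 ± 6.10 RPKM, Ccny at 19.4 ± 4.14, Cdk5 at 17.3 ± 0.81, Cdk18 at 11.0 ± 1.14, Cdk17 at 6.98 ± 0.62 and Cdk5r1 at 2.22 ± 1.08 RPKM (SD). All neighbours in this order had ranges that did not overlap, except Ccny and Cdk5, where Ccny was the higher in 4 of 6 libraries. The order was the same for reads per kilobase with the trimmed scaling.

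Within the summed RPKM of the PCTAIRE genes, Cdk16 held 68.5%, 67.7% and 61.8% in the knockdown libraries of batches 1, 2 and 3, against 69.6%, 67.9% and 63.4% in the control libraries. Cdk18 held 18.4%, 19.5% and 23.5% in knockdown libraries, against 18.2%, 20.1% and 23.4% in control libraries. Cdk17 held the rest, between 12.8% and 14.7% in knockdown libraries and between 12.0% and 13.2% in control libraries. The libraries of a batch resembled each other in these proportions, and batch 3 had the lowest share of Cdk16 in both groups.

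At the gene level the fitted log2 fold changes of the 6 members lay between -0.14 and 0.03. Of the 6 members, 0 passed the test across all genes (limma, adjusted p below 0.05), where 1.71% of 15983 genes passed, and from a comparison that chose the members nothing is read from this count. In scaled log2 CPM, Cdk16 and Cdk5 were lower in the knockdown of all 3 batches, as were 24.3% of genes, and Cdk17 was higher in all 3, as were 25.8%. In RPKM, Cdk5 was instead higher in the knockdown of batches 1 and 3. The summed RPKM of the groups overlapped for each of the 6 members, while 7.8% of genes had groups that did not overlap.

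Cdk16, the kinase that cyclin Y activates, was at 35.7, 41.7 and 28.0 RPKM in the knockdown libraries of batches 1, 2 and 3, against 39.0, 42.5 and 29.8 RPKM in the control libraries. The knockdown library was the lower in every batch, by less than the spread between batches. The fitted log2 fold change was -0.14 (SE 0.04), with -0.15, -0.12 and -0.16 in the batches. On log2(RPKM + 1) the fitted value was -0.08.

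Cdk17, a PCTAIRE kinase abundant in brain, was at 6.80, 7.90 and 6.65 RPKM in knockdown libraries, against 6.79, 7.51 and 6.20 RPKM in control libraries. Its log2 fold change was 0.02 (SE 0.05), with 0.01, 0.01 and 0.02 in the batches. Cdk18 was at 9.57, 12.03 and 10.6 RPKM in knockdown libraries, against 10.2, 12.6 and 11.01 RPKM in control libraries. Its log2 fold change was -0.03 (SE 0.05), so the sum over its forms differed little while the forms themselves differed as described below.

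Ccny, whose protein is the cyclin partner of Cdk16, was at 17.8, 15.3 and 19.0 RPKM in knockdown libraries, against 25.4, 15.6 and 23.4 RPKM in control libraries. In batches 1 and 3 the knockdown library was clearly the lower in RPKM, and in batch 2 it was lower by less than elsewhere. In reads, which do not depend on how reads are divided among forms of unequal length, the log2 fold change was -0.09 (SE 0.05), with -0.14, 0.02 and -0.13 in the batches. On log2(RPKM + 1) it was -0.27.

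Cdk5, the kinase that Cdk5r1 and Cdk5r2 activate, varied little between libraries, at 16.8, 18.02 and 17.35 RPKM in knockdown libraries, against 16.3, 18.4 and 16.8 RPKM in control libraries. Its log2 fold change was -0.04 (SE 0.05) in reads and 0.02 on log2(RPKM + 1), so its direction depends on the scale. Cdk5r1, which encodes a Cdk5 activator, was at 1.86, 3.64 and 1.35 RPKM in knockdown libraries, against 1.72, 3.52 and 1.25 RPKM in control libraries. These values rest on 147, 220 and 122 read pairs in knockdown libraries and on 303, 270 and 156 in control libraries. The log2 fold change of Cdk5r1 was 0.03 (SE 0.10), with both signs among the batches.

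**Figure D2:**
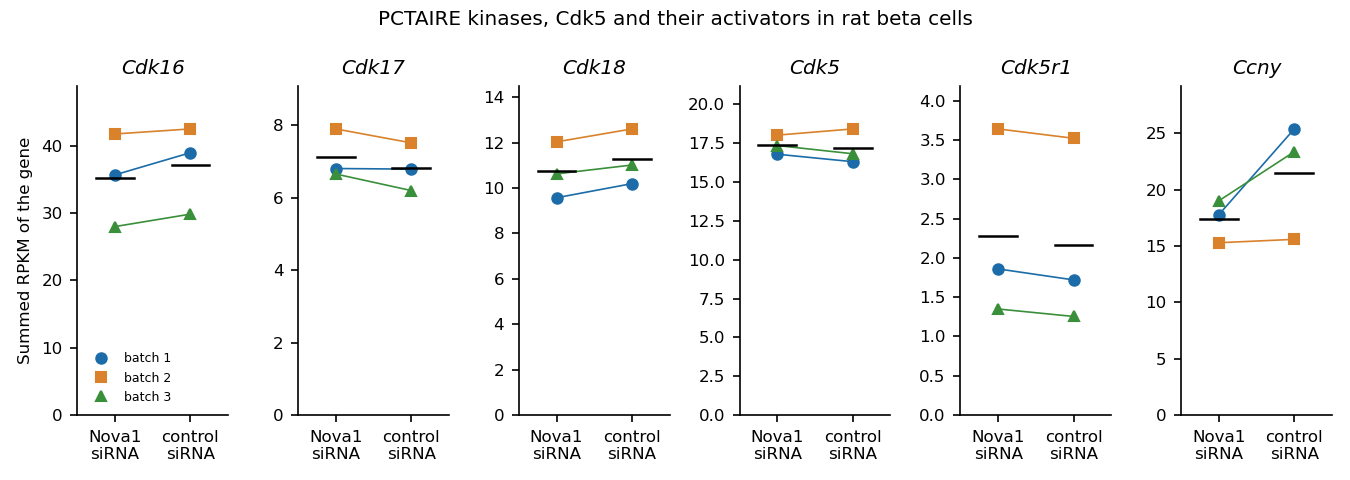
Summed RPKM (vertical axes, from 0) of the 6 genes in Nova1 siRNA and control siRNA libraries, with a symbol and a line for each batch and a black bar for the mean of 3 libraries. The groups overlap for each gene, and Cdk5r1 is highest in batch 2 of both groups.

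The batches differed more than the groups for Cdk5r1. Its level in batch 2 was 2.27 times the mean of batches 1 and 3 in knockdown libraries and 2.37 times in control libraries, while Cdk5 itself was at 1.06 and 1.11 times. The ratio of Cdk5 to Cdk5r1 in RPKM was therefore 9.03, 4.95 and 12.9 in knockdown libraries and 9.49, 5.23 and 13.4 in control libraries. Ccny was instead lower in batch 2, at 0.831 times the other batches in knockdown libraries and 0.640 times in control libraries.

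Genes with the most similar profile of log2 CPM over the 6 libraries were ranked by Pearson's r among 13300 genes, as a description of libraries that share batches and depth. Polm followed Cdk5r1 with an r of 0.9997 and Coa5 followed Ccny at 0.998. For Cdk17 the nearest was Myo16 at 0.997, for Cdk16 Mapk1ip1l at 0.994, for Cdk18 Stk32c at 0.9935 and for Cdk5 Rmnd1 at 0.993. The second gene for each member, in the same order, was Trank1, Cd276, Islr2, Ptchd2, Sulf2 and P4ha2.

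The forms of Cdk18 differ mainly in where they begin. Of the 6 forms, 5 join a first exon of their own to an exon of 149 nt (13:53972866-53973014), and the remaining one, called form A here, begins inside that exon. Form A is the annotated transcript, has a last exon of 155 nt in place of 1384 nt, and holds no base or junction of its own. The first exons of the others lie farther upstream, 1742 nt for form B (23 nt long), 3880 nt for form C (57 nt, 13:53976838-53976894), 11615 nt for form D (55 nt), 16805 nt for form E (94 nt) and 17159 nt for form F (448 nt). Form E also skips an internal exon of 43 nt (13:53966716-53966758), which is one of the exons whose length the PCTAIRE genes share. Nothing but the first exon and its junction separates forms B, C and D from each other.

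Form C was listed at 0 in all 3 knockdown libraries, against 2.63, 3.45 and 3.62 RPKM in the control libraries. The control values rest on estimates of 2152, 1227 and 2087 reads. In control cells form C made up 25.8%, 27.4% and 32.9% of the summed RPKM of Cdk18, a mean of 28.7% ± 3.70 (SD, n = 3), and the difference in share was -28.7 percentage points. An exact 0 in these estimates can be a failed estimate, since form C differs from forms B and D by its first exon and junction alone. Of 31429 transcripts tested, 16 (0.0509%) were listed at 0 in all knockdown libraries and at 1 RPKM or more in all controls, and 0.0445% showed the reverse.

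Forms B and F were higher in the knockdown libraries. Form B differs from form C by its first exon of 23 nt and its junction alone. The values of forms B and C therefore depend on how reads were divided among the forms. What lies behind the rise of form B was not tested. Form B was at 3.40, 6.30 and 4.03 RPKM in knockdown libraries, against 2.54, 3.11 and 1.79 RPKM in control libraries. The groups did not overlap, and the share of the gene was 41.9% ± 9.12 in knockdown cells and 21.96% ± 4.97 in control cells (SD, n = 3 each). Form F was at 1.475, 2.59 and 2.60 RPKM in knockdown libraries, against 0.537, 0.708 and 0.482 RPKM in control libraries. Its groups did not overlap either, with a share of 20.5% ± 4.64 in knockdown cells and 5.09% ± 0.64 in control cells. Form F alone carries 354 bases of its own, the most of any Cdk18 form.

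Form A, the annotated transcript, was at 2.76, 2.72 and 2.46 RPKM in knockdown libraries, against 3.39, 3.76 and 3.57 RPKM in control libraries. All knockdown values were below all control values, and the share was 24.8% ± 3.44 in knockdown cells and 31.9% ± 1.79 in control cells. Form E, with the 43-nt exon left out, was at 1.94, 0.425 and 1.53 RPKM in knockdown libraries, against 1.085, 1.57 and 1.55 RPKM in control libraries. Its groups overlapped, and its share differed by 0.355 percentage points on average with an SD of 9.27 over the batches. Form D was listed at 0 in all 6 libraries. Forms E and F have overlapping first exons and together made up 35.7%, 25.03% and 38.9% of the gene in knockdown libraries, against 15.9%, 18.05% and 18.5% in control libraries.

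**Figure D3:**
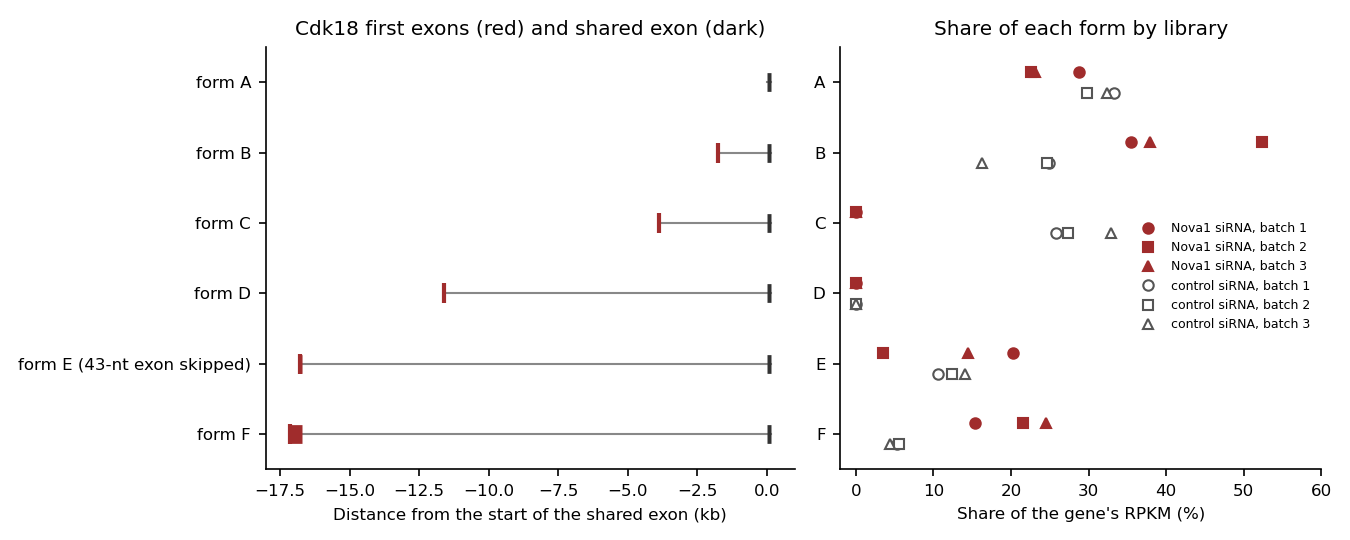
Left, the first exon of each Cdk18 form (red) and the shared exon (dark) by distance from the start of the shared exon in kilobases. Right, the share of each form in the summed RPKM of the gene (percent) in each library, with filled symbols for Nova1 siRNA and open symbols for control siRNA. Form C lies at 0% in the knockdown libraries and between 25.8% and 32.9% in the control libraries, while forms B and F lie higher in the knockdown.

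Among the 19 transcripts of members with more than 1 form, 6 had shares whose groups did not overlap, 4 of Cdk18 and 2 of Cdk16, and 9.37% of all transcripts tested did. In the fit of transcripts departing from their gene, 1 of 18 members' transcripts tested passed (form C of Cdk18; limma diffSplice), where 0.315% of transcripts passed. At the gene level of that fit 0.734% of 9538 genes passed. As the Cdk18 forms were chosen from this comparison, nothing is read from these counts. Form C did not pass when the minimum of reads was 5 times higher, and forms B and F passed with it when batch 1 was left out. Form F also passed with no filter and on log2(RPKM + 0.1).

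Cdk16 forms also differ at the start. Form A, an annotated transcript of 2607 nt, begins within the gene. Forms B and C begin at a first exon between 2511377 and 2511738, and forms D and E at one farther upstream, between 2511825 and 2512211 of chromosome X. The farthest ends of these first exons lie 473 nt apart on Rnor_5.0, and the 2 RefSeq starts, whose windows are printed above, lie 445 nt apart on GRCr8. Forms D and E start at different points of that exon, and an exon of 43 nt in form D is shortened to 34 nt in form E.

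Form A of Cdk16 was at 15.1, 20.4 and 12.4 RPKM in knockdown libraries, against 13.9, 17.2 and 11.4 RPKM in control libraries. Its share was 42.4%, 48.9% and 44.3% in knockdown libraries, all above the 35.7%, 40.4% and 38.15% of control libraries. Form D, an annotated transcript with no base of its own, was at 4.89, 0 and 2.47 RPKM in knockdown libraries, against 7.35, 5.48 and 5.81 RPKM in control libraries. In RPKM the knockdown values of form D lay below all control values, and in the knockdown of batch 2 it was listed at 0. Its shares overlapped, at 13.7%, 0% and 8.84% in knockdown libraries, against 18.9%, 12.9% and 19.5% in control libraries. Form C held 24.4% ± 2.79 in knockdown cells and 21.1% ± 1.89 in control cells (SD, n = 3 each), without overlap. Form E held 22.15% ± 4.02 in knockdown cells and 22.1% ± 2.76 in control cells, and form B no more than 2.61% of the gene in any library. Together the forms with the farther start, D and E, held 29.7% ± 4.66 of the gene in knockdown cells and 39.2% ± 4.76 in control cells. Their difference was -9.53 percentage points with an SD of 1.95 over the batches, although the ranges of the groups overlapped.

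Cdk17 forms overlapped between the groups without exception. The annotated form of 3670 nt held 47.7%, 67.0% and 50.01% in knockdown libraries, against 54.1%, 71.3% and 56.8% in control libraries. It was lower in the knockdown of each batch, with a mean difference in share of -5.83 percentage points (SD 1.31), and batch 2 was the highest in both groups. A form with an exon of 103 nt in place of 165 nt held 36.2%, 12.1% and 34.8% in knockdown libraries, against 25.9%, 7.45% and 32.1% in control libraries. It was the higher in the knockdown of each batch and lowest in batch 2 of both groups. A form that ends early, with a last exon of 383 nt, held 14.8% ± 0.74 in knockdown cells and 15.7% ± 4.38 in control cells. The fourth form held between 0.483% and 6.78% of the gene.

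Ccny has a long form, with a last exon of 5702 nt, and a short form, with a last exon of 547 nt and no base of its own. The short form was at 5.21, 2.11 and 6.30 RPKM in knockdown libraries, against 13.3, 3.64 and 10.97 RPKM in control libraries. Its share was 29.3%, 13.8% and 33.15% in knockdown libraries, against 52.4%, 23.3% and 46.9% in control libraries. The short form was lower in the knockdown of each batch, with a mean difference in share of -15.5 percentage points (SD 6.92), although the ranges of the groups overlapped across batches. The long form was at 12.6, 13.2 and 12.7 RPKM in knockdown libraries, just above the 12.1, 11.96 and 12.4 RPKM of control libraries. In reads in place of RPKM the difference in share of the short form was -6.77 percentage points.

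Cdk5 has the same pair of ends in both groups. Its short form, of 1160 nt, held 85.0% ± 6.85 of the gene in knockdown cells and 84.3% ± 2.96 in control cells. The long form, with a last exon of 1220 nt, was at 1.715, 4.12 and 2.07 RPKM in knockdown libraries, against 2.20, 3.52 and 2.46 RPKM in control libraries. The long form was highest in batch 2 of both groups, and the groups overlapped.

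**Figure D4:**
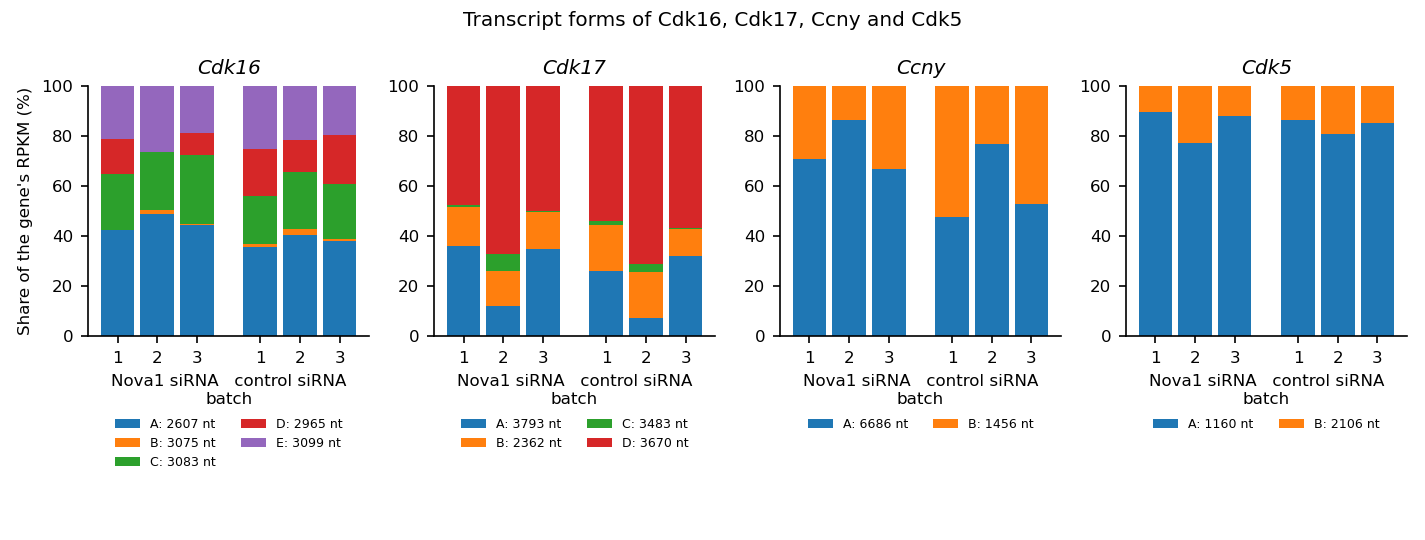
Share of each transcript form in the summed RPKM of its gene (percent, stacked from 0 to 100) for Cdk16, Cdk17, Ccny and Cdk5, in Nova1 siRNA libraries of batches 1 to 3 and then control siRNA libraries. Letters and lengths in nucleotides name the forms of each gene; the short form of Ccny (1456 nt) is smaller in the knockdown of each batch.

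Partners and targets of these kinases were followed in 4 lists of 95 symbols, of which 94 were found and 91 tested. Of these, 1 rose and 2 fell (limma, adjusted p below 0.05), where 1.71% of all genes passed in either direction. The median log2 fold change of the lists was 0.04 and 59.3% of values were positive, against a median of 0.0035 and 50.75% over all genes tested. None of the 18 other cyclin-dependent kinases tested passed (0 calls, 4 at an unadjusted p below 0.05 in limma). Nor did any of the 18 activators and regulators of Cdk5 (0 calls, 5 at an unadjusted p below 0.05 in limma). Of all 15983 genes tested, 3816 were at an unadjusted p below 0.05. Of 36 Cdk5 substrates tested 1 rose, and of 19 partners and substrates of PCTAIRE kinases and cyclin Y 2 fell.

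Ccnyl1, which encodes a relative of cyclin Y, was at 5.87, 18.9 and 5.19 CPM in knockdown libraries, against 9.29, 26.1 and 7.06 CPM in control libraries. The knockdown library was the lower in each batch, and batch 2 was far above the others in both groups. Fitted over batches, the change was -0.52 on the log2 scale (SE 0.07; adjusted p = 0.046 in limma). Prkacb, a catalytic subunit of protein kinase A, was at 129.2, 145.4 and 145.8 CPM in knockdown libraries, against 200.9, 184 and 198.2 CPM in control libraries. All knockdown values lay below all control values, and the fitted change was -0.47 on the log2 scale (SE 0.07; adjusted p = 0.047 in limma). Nefm, the medium neurofilament and a Cdk5 substrate in neurons, was at 58.55, 66.95 and 52.9 CPM in knockdown libraries, against 45.3, 53.7 and 42.6 CPM in control libraries. Each batch was higher in the knockdown, and the fitted change was 0.33 on the log2 scale (SE 0.05; adjusted p = 0.046 in limma). Ranges of the groups overlapped for Nefm and Ccnyl1. The number of calls in the lists was 0 under every alternative tried, the fit without the batch block included, except median of ratios scaling, where it was 2.

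In the lists without a call, the genes with the largest changes did not pass. Ccne1, the cyclin E gene whose protein binds Cdk5 in neurons, stood at -0.65 on the log2 scale (SE 0.11; adjusted p = 0.063 in limma), and Fyn, a tyrosine kinase that phosphorylates Cdk5, at 0.41 (SE 0.08; adjusted p = 0.068 in limma). The cyclin-dependent kinase-like genes Cdkl1 and Cdkl2 had values of 0.56 (SE 0.13, adjusted p = 0.098 in limma) and -0.35 (SE 0.08, adjusted p = 0.099 in limma). Cdk5r2, the second Cdk5 activator, was named after its values were seen, because its level bears on that of Cdk5r1. It was at 17.6, 14.5 and 16.4 RPKM in knockdown libraries, against 15.4, 12.2 and 13.05 RPKM in control libraries, above Cdk5r1 in each of the 6 libraries. Its log2 fold change of 0.21 (SE 0.05) did not pass (adjusted p = 0.11 in limma). None of 282 transcripts of the listed genes departed from its gene in limma diffSplice (0 calls, smallest adjusted p 0.21). An unadjusted p below 0.05 was seen for 13 of them, and for 2826 of all 31429 transcripts tested.

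**Figure D5:**
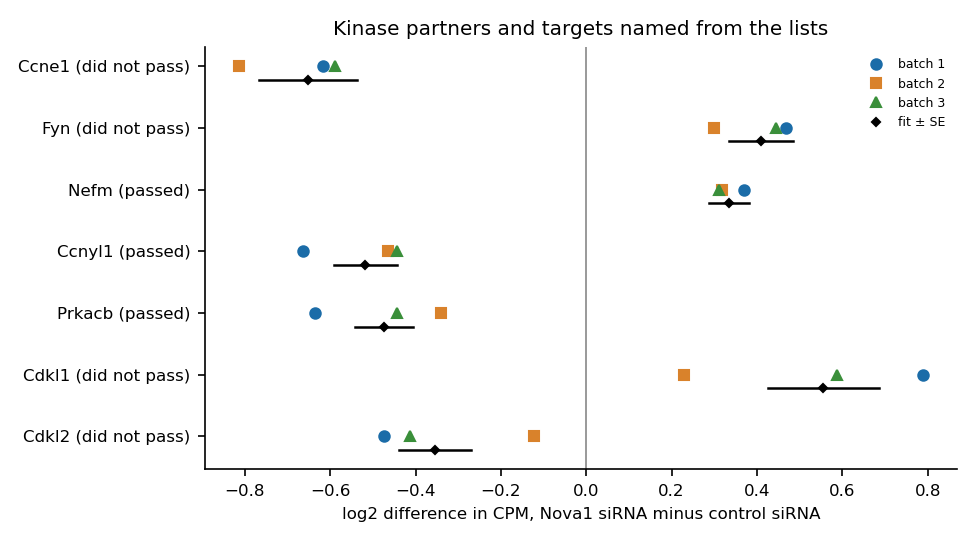
Log2 difference in CPM, Nova1 siRNA minus control siRNA (horizontal axis), of the listed partners and targets taken by the naming rule. Coloured symbols are the 3 batches, and black diamonds with bars are the fitted value ± its standard error; Nefm, Ccnyl1 and Prkacb passed at an adjusted p below 0.05.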

How the data were processed

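RNA of 3 Nova1 knockdown and 3 control libraries, grouped and numbered by batch from their titles, was measured by poly(A) RNA sequencing. Reads were aligned with TopHat to Rnor_5.0, per the submitters' processing notes, and transcripts were assembled with Cufflinks, per the file headers. For each library the authors deposited, as text attributes of each transcript, an estimated number of reads, a length and an RPKM value. Which program divided reads among forms, and whether it used strand, is not given in the sources used here. Sums of reads per gene are even for 92.5% to 92.85% of gene models above 0 (tolerance 0.01). For Cdk5r1, 2 reads were therefore given as 1 read pair. All other read numbers, the filter and the main fits use undivided reads.

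Reads were summed per gene model (locus and gene name). Genes with the equivalent of 10 reads in at least 3 libraries and 15 reads in all were kept. Scaling factors were trimmed means of M values over the genes kept (trim 30% of M, 5% of A), and limma 3.58.1 (R 4.3.3) voom was fitted with batch as a block, with Benjamini-Hochberg adjustment at 0.05. Transcripts were tested with diffSplice in the same design and library sizes. The reads sit in text attributes, so a count model was not used, as the design provided. The order of filter and scaling, and the library sizes for transcripts, were taken from earlier work on these files after the counts of calls under both were seen. The members and lists were chosen with earlier results of these data known. Genes named from the lists are the called ones (up to 4 a list) or, with none called, the 2 largest changes at 1 RPKM or more. Forms with at least 10% of their gene in a group are described singly. Batches pair the libraries by design: deviations from the group mean correlated at 0.376, 0.723 and 0.555. Promoter windows are RefSeq's on GRCr8, with 5 of 6 members matched; Cdk17 was not. One list symbol, Cdk3, was not matched. Alternatives were no block, each batch left out, other scalings, filters, log2(RPKM) fits, reads in place of RPKM, and, added after seeing the data, scaling before the filter and reads divided by 2. Some marker lists for other cell types are not reported here.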

Additional observations from a re-analysis of the deposited data

How the results depend on the processing

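The number of genes called in limma was 274 as reported. It was 0 without the replicate block (521 at an unadjusted p below 0.05) and between 0 and 75 when a batch was left out (2796 at an unadjusted p below 0.05 without batch 2, where it was 0). It was 91 with library totals, 171 with no filter, 119 with a filter 5 times higher, 72 with scaling taken before the filter and 122 with reads divided by 2. In limma-trend it was 0 on log2(RPKM + 1) and on log2(RPKM + 0.1) (3193 and 3111 at an unadjusted p below 0.05). For the lists the 3 calls became 0 under each of these settings, each batch left out included (5 at an unadjusted p below 0.05 in limma without the replicate block), and 2 with median of ratios scaling.

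The 99 transcripts called became between 427 and 498 with a batch left out, 191 with no filter, 49 with the filter 5 times higher, 165 on log2(RPKM + 0.1) and 108 without the replicate block. Among 282 transcripts of the listed genes 0 passed in limma (13 at an unadjusted p below 0.05, against 2826 of all 31429). For the listed genes, between 2 and 7 transcripts passed with a batch left out and 2 with no filter. The causes were not tested.

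For form C of Cdk18 the difference in share was -33.55 percentage points in reads, against -28.7 in RPKM. Of the members' fold changes under the alternatives, 58 stayed within 1 SD and 14 moved. Ccny had the widest range, from -0.28 in limma-trend on log2(RPKM + 0.1) to -0.03 with library totals, around -0.09. Cdk18 ranged from -0.07 to 0.02 and Cdk5 from -0.06 to 0.02 on the log2 scale, so both changed sign. The differences in share of Cdk16 form E, the Cdk17 form that ends early, Cdk18 form E and both Cdk5 forms also changed sign, and those of the other forms described singly did not. Depth limits Cdk5r1, and forms with no base or junction of their own rest on how reads were divided.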
